A study of Mus musculus with 11 samples.

Results

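The genes of the platelet-derived growth factor (PDGF) system were followed in dermal fibroblasts from unwounded and wounded mouse skin: the receptor genes Pdgfra and Pdgfrb, the receptor-like gene Pdgfrl and the ligand genes Pdgfa, Pdgfb, Pdgfc and Pdgfd. The members were chosen by gene symbol and not by their values, but with earlier results of these data known. They are 7 of the 47643 symbols in the expression table. The study asked how activin made by keratinocytes changes wound fibroblasts. Live cells positive for CD140a, the protein encoded by Pdgfra, and negative for CD45 and myeloid surface proteins were sorted by flow cytometry, and their poly-A RNA was sequenced. There were 4 groups: WT normal skin (NS, 3 libraries), Act NS (3 libraries), WT 5-day wound (5dw, 3 libraries) and Act 5dw (2 libraries, numbered 1 and 3). Act mice carry an INHBA transgene, which encodes the activin A subunit, under the keratin 14 promoter, a promoter active in keratinocytes rather than fibroblasts. WT mice were littermates without it. All animals were female F1 mice of a mixed CD-1 and C57Bl/6 strain aged 9 to 12 weeks, and each library pooled the RNA of 3 animals across sorting sessions. All 5dw samples came from full-thickness excisional wounds.

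PDGFs are secreted dimers that bring together a pair of receptor tyrosine kinases, PDGFRα and PDGFRβ, at the surface of mesenchymal cells. The PDGF-A and PDGF-B chains are secreted in an active form, whereas PDGF-C and PDGF-D carry a CUB domain that must be cut off by proteases before they bind the receptors. PDGFRα marks most dermal fibroblasts, PDGFRβ is also abundant on pericytes, and Pdgfrl encodes a secreted protein that resembles the ligand-binding part of a PDGF receptor and has no kinase domain. In wounded skin, platelets, macrophages, keratinocytes and endothelial cells are known sources of PDGF ligands that recruit fibroblasts.

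Promoter sequences are shown for the members that rose with wounding (Pdgfa and Pdgfc), for the ligand with the highest level (Pdgfd) and for the gene whose protein defined the sort (Pdgfra), so that the sequence around their starts can be set beside their values. Each is a RefSeq window of 250 bases before to 50 bases after an annotated transcription start in GRCm38.p6, written 5′ to 3′ on the gene's strand in lower case. Windows were at hand for 4 of the 7 members, and Pdgfa had 2. Capitals mark matches on either strand to the GC box, whose letters are GGGCGG. In the Pdgfd window they mark a match to TATAAA, the letters of the TATA box. The coordinates are chr3:81036166-81036465 on the plus strand for Pdgfc, chr5:138994232-138994531 and chr5:138994895-138995194 on the minus strand for Pdgfa, chr9:6168236-6168535 on the plus strand for Pdgfd and chr5:75152001-75152300 on the plus strand for Pdgfra.
Pdgfc: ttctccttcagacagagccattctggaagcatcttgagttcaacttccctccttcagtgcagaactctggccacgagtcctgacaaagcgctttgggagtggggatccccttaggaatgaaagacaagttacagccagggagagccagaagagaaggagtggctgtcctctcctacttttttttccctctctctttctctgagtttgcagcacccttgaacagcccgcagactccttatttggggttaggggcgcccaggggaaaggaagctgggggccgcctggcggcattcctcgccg
Pdgfa, first window: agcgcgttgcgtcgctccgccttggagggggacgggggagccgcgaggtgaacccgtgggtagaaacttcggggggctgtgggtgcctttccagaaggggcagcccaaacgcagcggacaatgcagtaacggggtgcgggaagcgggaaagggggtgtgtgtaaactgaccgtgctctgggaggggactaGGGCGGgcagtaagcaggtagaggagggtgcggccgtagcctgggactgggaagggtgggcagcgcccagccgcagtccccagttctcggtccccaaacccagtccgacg
Pdgfa, the other window: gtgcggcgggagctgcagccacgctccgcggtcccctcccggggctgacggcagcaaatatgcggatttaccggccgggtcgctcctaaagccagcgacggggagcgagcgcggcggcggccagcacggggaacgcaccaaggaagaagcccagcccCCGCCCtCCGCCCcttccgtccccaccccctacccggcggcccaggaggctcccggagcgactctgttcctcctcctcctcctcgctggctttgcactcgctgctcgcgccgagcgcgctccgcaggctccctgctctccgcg
Pdgfd: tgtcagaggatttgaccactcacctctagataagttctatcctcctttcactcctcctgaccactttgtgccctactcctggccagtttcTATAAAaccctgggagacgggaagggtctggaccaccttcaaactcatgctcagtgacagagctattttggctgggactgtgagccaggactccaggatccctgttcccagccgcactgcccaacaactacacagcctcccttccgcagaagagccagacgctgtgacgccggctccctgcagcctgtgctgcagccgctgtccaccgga
Pdgfra: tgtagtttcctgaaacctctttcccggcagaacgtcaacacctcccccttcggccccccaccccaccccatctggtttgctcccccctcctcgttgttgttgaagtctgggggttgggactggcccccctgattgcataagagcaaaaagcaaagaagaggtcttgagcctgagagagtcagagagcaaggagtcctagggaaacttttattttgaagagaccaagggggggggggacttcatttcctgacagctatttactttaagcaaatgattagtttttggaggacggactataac

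The Pdgfa windows were the richest in GC of the 5, at 67% and 73.3%, against 55% for Pdgfc, 51% for Pdgfra, 56.7% for Pdgfd and a median of 52.7% over 32851 mouse windows of the same length. The second Pdgfa window held 37 CpG dinucleotides, where the median window held 7 and the Pdgfc and Pdgfd windows held 8 each. A GC box stood in both Pdgfa windows (1 and 2 matches), and 35.7% of all windows hold one. The letters TATAAA stood in the Pdgfd window, with their first base 160 bases before the start, and in no other window shown here. Of all windows, 13.6% hold such a match. Whether the match serves as a core promoter element was not tested. Of 3 further motifs searched on both strands, none was in these 5 windows: the CCAAT box, which 37.4% of all windows hold, the AP-1 site, written TGANTCA, which 7.81% hold, and the core of the hypoxia response element, written ACGTG, which 19.6% hold. Pdgfa and Pdgfc, the pair of ligand genes that rose with wounding, thus had windows of unlike composition.

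Expression is given as RPKM, reads scaled by exon length and by the mapped reads of the library, so that levels can be compared between genes. The mapped reads recovered from the RPKM values were 18649321 to 39702138 per library. Depth differed by group, with 38740404 to 39702138 in WT 5dw and 18649321 to 29718956 in the other groups. The summed RPKM of 10 fibroblast markers was 13500 to 19190 in the 6 NS libraries and 24130 to 27410 in the 5 5dw libraries. These ranges did not overlap, but the markers did not move together. Col1a1 (2092 to 4709 RPKM in NS and 7761 to 10280 in 5dw), Col1a2, Col3a1 and Mfap5 were higher in 5dw. Dcn (3805 to 4825 and 1699 to 2048), Lum, Dpt and Thy1 were lower, each without overlap. Fbln1 and Vim overlapped between NS and 5dw. The pan-leukocyte gene Ptprc, which encodes CD45, was at most 0.0498 RPKM, and the sum of 8 immune markers was 3.44 to 35.5 RPKM in NS and 56.4 to 106 in 5dw. Most of that sum was Cd3e, a T cell receptor complex gene (2.94 to 33.9 RPKM in NS and 55.5 to 104.7 in 5dw), and each of the other 7 markers was at most 0.651 RPKM. Markers of keratinocytes were present and differed between NS and 5dw: 12 of 12 listed genes were in the table, and their sum was 1246 to 4635 RPKM in the 6 NS libraries and 125 to 1059 in the 5 5dw libraries. The NS libraries numbered 1 of both genotypes stood apart from the other 4 NS libraries in having the lowest keratinocyte sums (1246 and 1258) and the highest fibroblast sums (19190 in WT and 16290 in Act). WT 5dw library 3 had the highest keratinocyte sum among the 5dw libraries (1059, the others 125 to 306). In RNA of bulk-sorted cells, fewer cells of a type and less RNA per cell cannot be told apart.

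In NS, the receptor genes were the abundant members and the ligand genes, Pdgfd excepted, were near the limit of expression. The mean levels in WT NS were 56.1 ± 7.98 RPKM for Pdgfra (SD, n = 3, as for the other WT NS means), 42.9 ± 14.5 for Pdgfrb and 37.9 ± 12.8 for Pdgfrl. Among ligand genes they were 19.5 ± 3.07 RPKM for Pdgfd, 1.77 ± 0.171 for Pdgfc, 1.05 ± 0.1497 for Pdgfb and 0.877 ± 0.282 for Pdgfa. In this order the ranges of Pdgfra, Pdgfrb and Pdgfrl overlapped between neighbours, as did those of Pdgfb and Pdgfa, whereas Pdgfd lay below all values of Pdgfrl and above all values of Pdgfc. In WT 5dw the order was Pdgfrl, Pdgfrb, Pdgfra, Pdgfd, Pdgfc, Pdgfa and Pdgfb, and the Pdgfrb and Pdgfra ranges were the only neighbouring pair to overlap. The order in Act libraries was the same as in WT in each tissue. In Act NS the ranges of Pdgfc and Pdgfb also overlapped and those of Pdgfrb and Pdgfrl did not. All 7 members passed the filter for testing of 1 RPKM in at least 2 libraries. Pdgfb reached 1 RPKM in 4 libraries, all of them NS, so that it passed through the tissue in which it was higher. Pdgfa reached it in 7 libraries, all 5 of the 5dw libraries and 2 of the NS libraries.

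**Figure D1:**
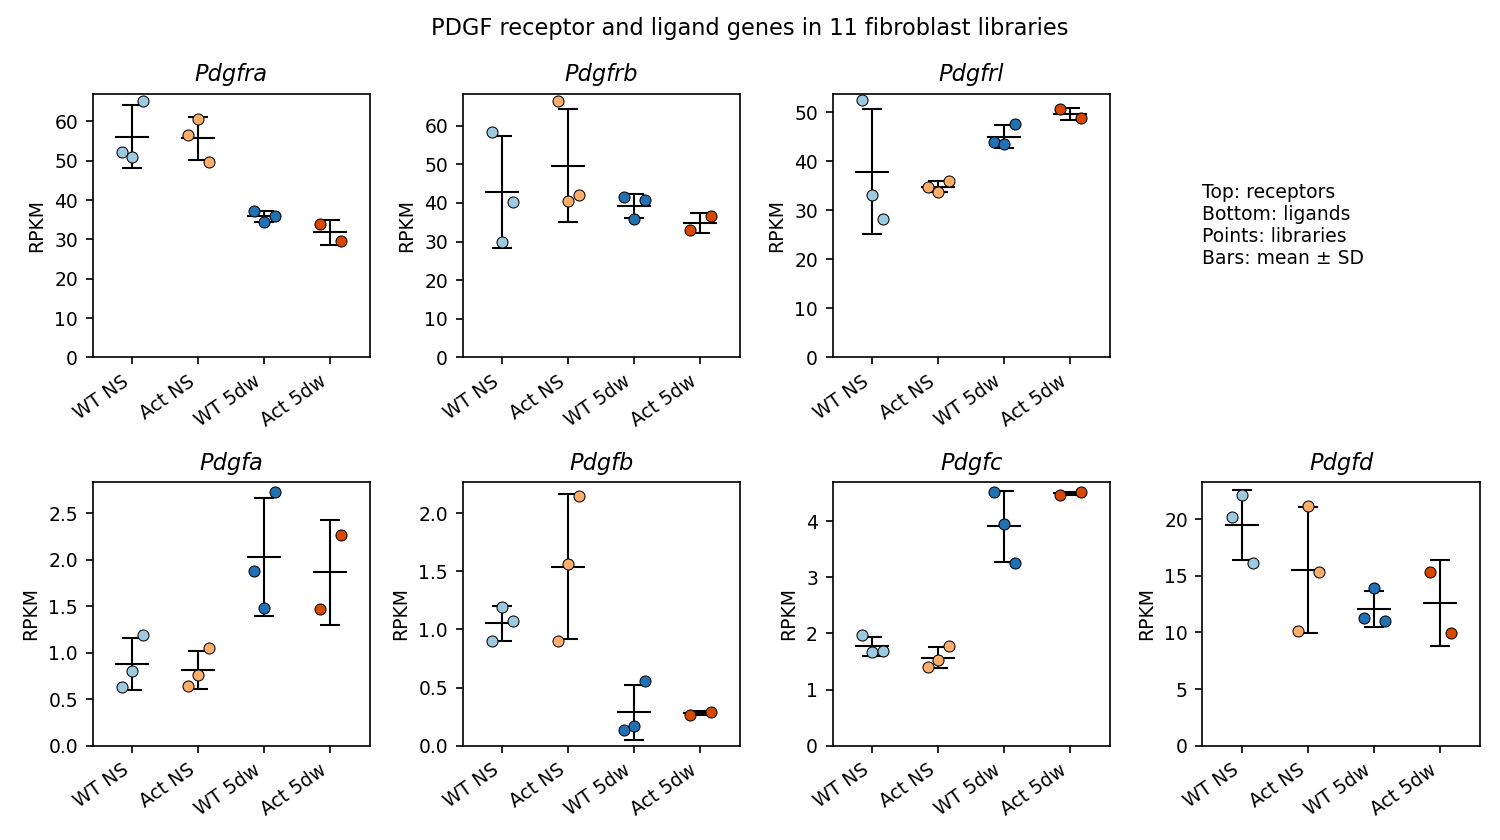
RPKM of the 7 PDGF genes (vertical axes from 0, scale differing between panels) in WT NS, Act NS, WT 5dw and Act 5dw, with receptor genes in the top and ligand genes in the bottom panels. Points are libraries and bars the mean ± SD; Pdgfa and Pdgfc lie higher and Pdgfra and Pdgfb lower in every 5dw library than in every NS library, while NS and 5dw overlap for Pdgfrb, Pdgfrl and Pdgfd over both genotypes.

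The comparison of WT 5dw with WT NS asks how wounding changes dermal fibroblasts without the transgene. Pdgfc and Pdgfa rose, and Pdgfb, Pdgfra and Pdgfd fell, whereas Pdgfrb and Pdgfrl did not pass the test. These 5 of 7 members called stand against 58.3% of the 11979 genes tested (limma, adjusted p under 0.05). Their groups did not overlap, against 66.4% of all genes. Pdgfb, which passed the filter through NS only, is among these 5 and counts as no support for either share. The calls of all genes were lopsided: 9.45% were higher and 48.8% lower in WT 5dw, and the median log2 fold change (log2FC) of all genes fell by 0.40. Since this shift is of the size of some member changes, each value is also given after median-ratio scaling, which multiplies each library by 1 factor so that the typical gene has the same level in all libraries and which removes the shift. With scaling, 2684 genes were higher and 2655 lower in WT 5dw, and 4 members were called. All log2FC are on the log2(RPKM + 0.5) scale, which understates the change of genes near 1 RPKM.

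Pdgfc, which encodes the CUB-domain ligand of PDGFRα, was at 1.97, 1.66 and 1.69 RPKM in WT NS libraries 1 to 3 and at 4.52, 3.94 and 3.25 RPKM in WT 5dw libraries 1 to 3. The lowest wound value was above the highest NS value. The log2FC was 0.95 with an SE of 0.13 (limma, adjusted p = 0.000203), and 1.32 after scaling (adjusted p = 2.24e-05). It rested on 158 to 255 reads per WT NS library and 642 to 913 per WT 5dw library.

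Pdgfa, whose product acts through PDGFRα, was at 0.635, 0.808 and 1.19 RPKM in WT NS and at 1.88, 1.48 and 2.73 RPKM in WT 5dw. All wound values were again above all NS values, though with a wider spread among the libraries. The log2FC was 0.87 with an SE of 0.22 (limma, adjusted p = 0.00709), and 1.19 after scaling (adjusted p = 0.00138). An antisense gene, 6330403L08Rik, covers 26.1% of the Pdgfa exon bases, and whether reads were counted by strand was not stated. It was at 0.0827 to 0.197 RPKM in NS and 0.346 to 0.594 RPKM in 5dw, and its part in the Pdgfa values was not tested.

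Pdgfb, whose product binds both receptors and is the main ligand of PDGFRβ on pericytes, was at 0.897, 1.19 and 1.07 RPKM in WT NS and at 0.138, 0.168 and 0.557 RPKM in WT 5dw. WT 5dw library 3 was well above the other wound libraries and still below every NS library. The log2FC was −1.02 with an SE of 0.25 (limma, adjusted p = 0.00577), and −0.78 after scaling (adjusted p = 0.0236). Only 16, 19 and 63 reads lay behind the 3 WT 5dw values. On the recovered reads (limma-voom), where no 0.5 RPKM is added, the log2FC was −2.13.

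Pdgfd, the CUB-domain ligand of PDGFRβ, was at 20.2, 22.2 and 16.1 RPKM in WT NS and at 11.3, 13.9 and 11.02 RPKM in WT 5dw. The groups did not overlap, and the log2FC was −0.67 with an SE of 0.25 (limma, adjusted p = 0.0398). The call was lost after scaling, with a log2FC of −0.22 (adjusted p = 0.459). It was also lost without WT NS library 1, WT NS library 2, WT 5dw library 1 or WT 5dw library 3, with adjusted p of 0.0882, 0.113, 0.101 and 0.107. Relative to the median of all genes, the log2FC of Pdgfd was −0.27.

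Pdgfra was at 52.1, 50.9 and 65.3 RPKM in WT NS and at 37.3, 34.4 and 35.9 RPKM in WT 5dw. The wound libraries were close together and below all NS libraries. The log2FC was −0.63 with an SE of 0.13 (limma, adjusted p = 0.00250). After scaling it was −0.18 and no longer called (adjusted p = 0.269). These levels were measured in cells gated on the protein that this gene encodes.

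Pdgfrb was at 58.5, 29.9 and 40.3 RPKM in WT NS and at 41.5, 35.7 and 40.7 RPKM in WT 5dw. The NS libraries spanned the whole range of the wound libraries, with library 1 highest. The log2FC was −0.07 with an SE of 0.24 (95% interval −0.61 to 0.46, limma, adjusted p = 0.807), and 0.38 after scaling (adjusted p = 0.283), so that the sign depended on the scaling.

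Pdgfrl was at 52.5, 33.2 and 28.1 RPKM in WT NS and at 44.0, 43.5 and 47.7 RPKM in WT 5dw. WT NS library 1 was above all wound libraries and the other NS libraries were below all of them. The log2FC was 0.29 with an SE of 0.19 (limma, adjusted p = 0.202). It was 0.75 after scaling (adjusted p = 0.0143) and 0.55 without WT NS library 1 (adjusted p = 0.00482), and was called in both. Over all single libraries left out in turn, the log2FC ranged from 0.11 to 0.55, so that the value without WT NS library 1 was the highest.

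**Figure D2:**
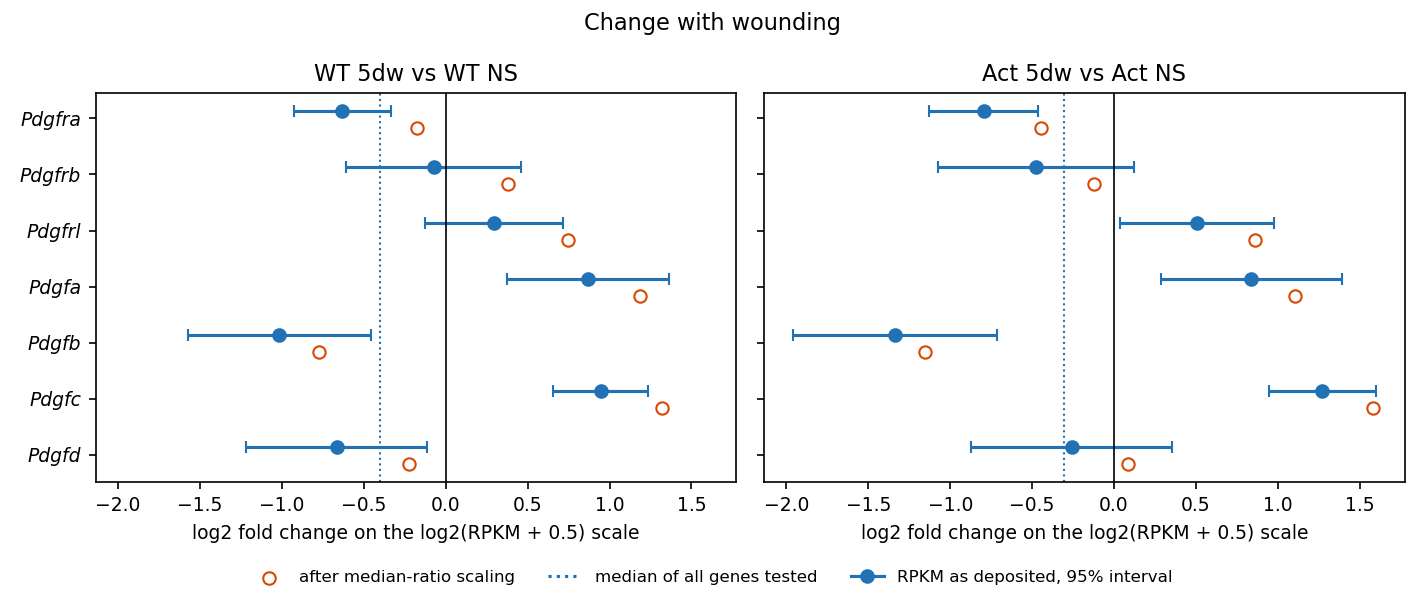
Log2FC of the 7 PDGF genes in 5dw relative to NS (horizontal axis) in WT and in Act mice. Filled points with 95% intervals are from RPKM as deposited, open points are after median-ratio scaling, and the dotted line is the median of all genes tested (−0.40 in WT, −0.31 in Act). Pdgfa and Pdgfc lie above 0 and Pdgfb below 0 on both scales in both genotypes.

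In Act mice, the comparison of 5dw with NS asks the same question in the presence of the transgene. Pdgfc and Pdgfa again rose and Pdgfb and Pdgfra fell, and Pdgfd, Pdgfrb and Pdgfrl did not pass the test. The 4 of 7 members called stand against 45.6% of all genes tested (9.04% higher and 36.5% lower). In 6 of 7 members the groups did not overlap, against 64.2% of all genes. Pdgfb is among these 6 and among the 4 called, and again counts as no support for either share. The median of all genes fell by 0.31 on the log2 scale, and after scaling 5 members were called, beside 19.9% of all genes higher and 20.8% lower.

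Pdgfc was at 1.40, 1.53 and 1.78 RPKM in Act NS libraries 1 to 3 and at 4.47 and 4.52 RPKM in Act 5dw libraries 1 and 3. The log2FC was 1.27 with an SE of 0.15 (limma, adjusted p = 9.87e-05), and 1.58 after scaling (adjusted p = 2.28e-05). In both genotypes Pdgfc had the lowest adjusted p of the members. Pdgfa was at 0.643, 0.758 and 1.05 RPKM in Act NS and at 1.47 and 2.26 RPKM in Act 5dw. Its log2FC was 0.84 with an SE of 0.25 (limma, adjusted p = 0.0190), and 1.10 after scaling (adjusted p = 0.00459). The call for Pdgfa was lost without Act 5dw library 3, where the log2FC was 0.59 (adjusted p = 0.177).

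Pdgfb was at 0.902, 1.56 and 2.15 RPKM in Act NS and at 0.267 and 0.294 RPKM in Act 5dw. Its spread was larger in Act NS than in WT NS, and the wound values were far below all of them. The log2FC was −1.34 with an SE of 0.28 (limma, adjusted p = 0.00325), −1.15 after scaling (adjusted p = 0.00670) and −2.33 on the recovered reads, of which there were 16 and 22 in the wound libraries. Pdgfd was at 10.1, 21.1 and 15.3 RPKM in Act NS and at 15.3 and 9.93 RPKM in Act 5dw, with overlapping groups. Its log2FC was −0.26 with an SE of 0.28 (95% interval −0.88 to 0.36, limma, adjusted p = 0.469), and 0.09 after scaling.

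Pdgfra was at 56.6, 60.6 and 49.8 RPKM in Act NS and at 34.0 and 29.6 RPKM in Act 5dw. The log2FC was −0.80 with an SE of 0.15 (limma, adjusted p = 0.00182), and in Act mice the call held after scaling, with a log2FC of −0.44 (adjusted p = 0.0275). Pdgfrb was at 66.4, 40.4 and 42.2 RPKM in Act NS and at 32.9 and 36.6 RPKM in Act 5dw. Although the groups did not overlap, the test was not passed, with a log2FC of −0.47 and an SE of 0.27 (limma, adjusted p = 0.174). Pdgfrl was at 34.7, 33.8 and 36.0 RPKM in Act NS and at 50.6 and 48.8 RPKM in Act 5dw. Its log2FC was 0.51 with an SE of 0.21 (limma, adjusted p = 0.0725), and 0.86 after scaling (adjusted p = 0.0137). The Pdgfrl call on the unscaled values appeared without WT NS library 1 (adjusted p = 0.00830) or WT NS library 3 (adjusted p = 0.0431), although neither is among the libraries compared, since all groups shared 1 estimate of the spread. It also appeared with only the 2 compared groups in the fit (log2FC 0.51, limma, adjusted p = 0.0468) and with array weights (log2FC 0.53, limma, adjusted p = 0.0222).

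The comparisons of Act with WT ask whether the keratinocyte-derived activin changes the fibroblasts. No PDGF gene passed the test in NS or in 5dw, and none had an unadjusted p under 0.05 in limma or an adjusted p under 0.05 on the recovered reads (limma-voom). Few genes of any kind did: 2 of 11979 (0.0167%) in NS and 4 (0.0334%) in 5dw were called by limma, with 824 (6.88%) and 386 (3.22%) at an unadjusted p under 0.05, and none by limma-voom. In NS the log2FC of Act relative to WT ran from −0.37 for Pdgfd (95% interval −0.92 to 0.18) to 0.35 for Pdgfb (−0.21 to 0.90), and the ranges of Act and WT overlapped for all 7 genes, as they did for all but 8.97% of genes tested. Between NS libraries of the same number, Pdgfrb and Pdgfb were higher in Act in 3 of 3 pairs and Pdgfd was lower in 3 of 3 (2 of 3 after scaling), and with the replicate number as a block none of them was called (limma, adjusted p = 0.661, 0.603 and 0.595). In 5dw they ran from −0.17 for Pdgfrb (−0.77 to 0.42) to 0.19 for Pdgfc (−0.13 to 0.52). Pdgfra was lower and Pdgfrl higher in both Act 5dw libraries than in the 3 WT 5dw libraries, by log2FC of −0.17 (−0.50 to 0.16) and 0.14 (−0.33 to 0.61), and 23% of all genes were without overlap in that comparison (15.2% lower and 7.87% higher in Act). The intervals for Pdgfra and Pdgfc in NS (−0.30 to 0.29 and −0.43 to 0.15) were the narrowest, and those for Pdgfb in NS and 5dw were among the widest.

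The wounding responses of the genotypes were compared by an interaction term. It was called for 0 of the 7 members and 0 of all genes (limma, 400 genes or 3.34% at an unadjusted p under 0.05, and 0 by limma-voom). The highest values were 0.41 for Pdgfd (SE 0.38) and 0.33 for Pdgfc (SE 0.20), and the lowest was −0.40 for Pdgfrb (SE 0.36). The call of Pdgfd in WT and not in Act is therefore not a tested difference between genotypes.

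Ratios between members within a library do not depend on the scaling. The ratio of Pdgfd to Pdgfc, the CUB-domain ligands, was 7.18 to 13.8 in the 6 NS libraries and 2.20 to 3.53 in the 5 5dw libraries. It was 3.49-fold lower in 5dw with genotypes kept apart (log2 difference −1.80, exact permutation test within genotypes, two-sided, p = 0.005, which is the smallest that 200 arrangements can give, adjusted p = 0.02 over 4 ratios). The ratio was lower in 5 of 5 wound libraries than in any NS library. Pdgfc alone also separated them (1.40 to 1.97 RPKM in NS and 3.25 to 4.52 in 5dw). The ratio is therefore not evidence apart from the Pdgfc result. The permutation took no account of the replicate numbers. Without any 1 of the Act NS libraries the adjusted p was 0.0667 (exact permutation test), at log2 differences of −1.90 to −1.67. Without Act 5dw library 1 or 3, which leaves 1 library in that group, the log2 differences were −1.96 and −1.64. These settings have fewer arrangements than 200, which raises the smallest possible p. The adjusted p depends on the other ratios as well. Within genotypes the plain ratios were 9.57 to 13.3 in WT NS against 2.49 to 3.53 in WT 5dw, and 7.18 to 13.8 in Act NS against 2.20 to 3.42 in Act 5dw. Pdgfd made up 81.5 ± 4.39% of the summed ligand RPKM in NS (SD, n = 6) and 65.4 ± 5.67% in 5dw (SD, n = 5), and Pdgfc 8.14 ± 1.69% and 22.3 ± 3.48%. The share of Pdgfa was 4.14 ± 1.35% in NS and 10.8 ± 3.70% in 5dw, and that of Pdgfb was 6.25 ± 2.40% and 1.56 ± 0.978%. Pdgfd was the most abundant ligand transcript in every library.

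**Figure D3:**
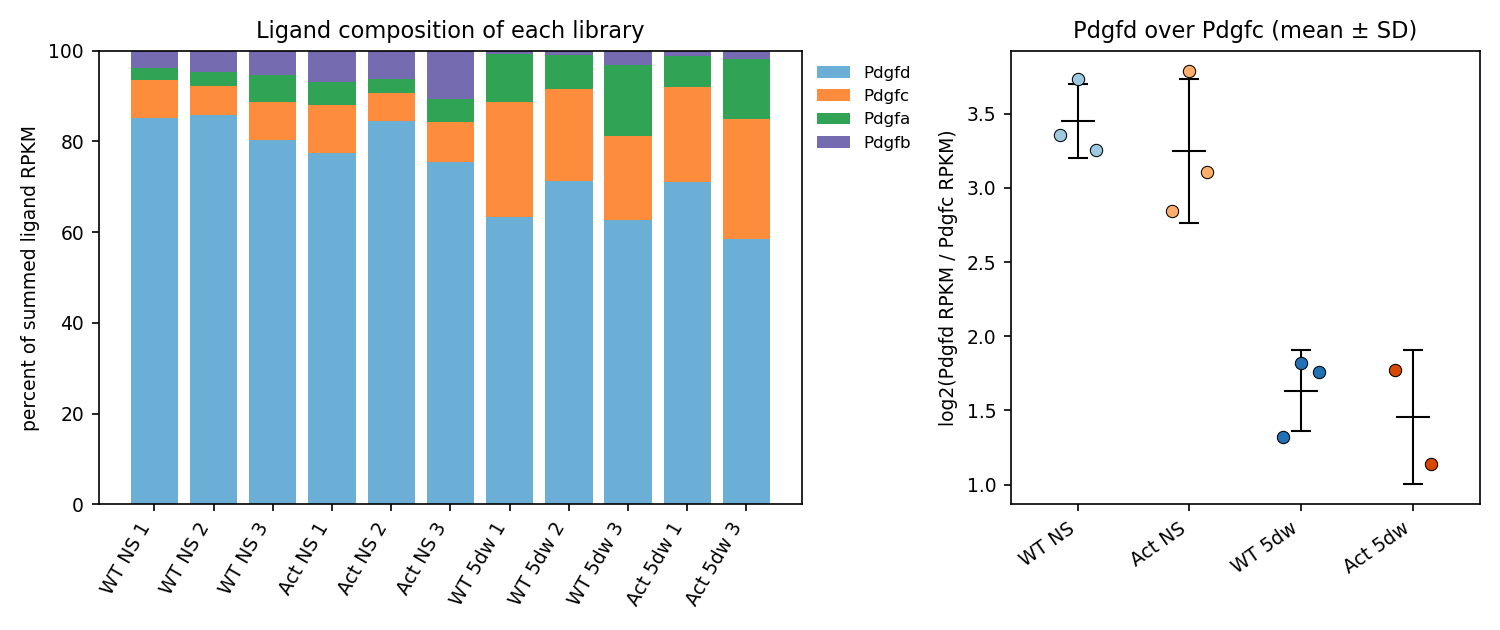
Left, share of each ligand gene in the summed ligand RPKM (vertical axis, percent) of each of the 11 libraries. Right, log2 of Pdgfd RPKM over Pdgfc RPKM by group, with points for libraries and bars for mean ± SD; all 5dw libraries lie below all NS libraries, at plain ratios of 2.20 to 3.53 against 7.18 to 13.8.

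The other ratios did not pass the test. Pdgfra over Pdgfrb was 0.851 to 1.70 in NS and 0.809 to 1.03 in 5dw, with a log2 difference of −0.45 (exact permutation test, p = 0.08, adjusted p = 0.16). Without both NS libraries numbered 1 the difference was −0.70 (exact permutation test, adjusted p = 0.0333). That setting was chosen after seeing the data, and it leaves out the NS libraries with the lowest ratios, in which Pdgfrb exceeded Pdgfra, so that it is no support for a difference. Pdgfa over Pdgfc was 0.322 to 0.704 in NS and 0.328 to 0.839 in 5dw (log2 difference −0.12, exact permutation test, p = 0.665), and the summed ligands over the summed receptors Pdgfra and Pdgfrb was 0.106 to 0.320 and 0.226 to 0.321 (log2 difference 0.36, exact permutation test, p = 0.25). For Act against WT all 4 ratios had an adjusted p of 0.81.

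The Pdgfb level moved with the keratinocyte markers from library to library. Ordered by Pdgfb and by the summed keratinocyte RPKM, the 11 libraries took the same places, except that WT NS libraries 2 and 3 exchanged neighbouring places. The highest Pdgfb library was Act NS library 3 (2.15 RPKM, keratinocyte sum 4635) and the lowest was WT 5dw library 1 (0.138 RPKM, sum 125). WT 5dw library 3, the wound library with the most keratinocyte RNA, was also the wound library with the most Pdgfb (0.557 RPKM). Between its lowest and highest library Pdgfb spanned 15.6-fold and the keratinocyte sum 37.1-fold, whereas Pdgfb per 1000 RPKM of keratinocyte markers spanned 2.38-fold (0.464 to 1.11). The genes whose pattern was most like that of Pdgfb over the 11 libraries were Calml3 (Pearson r = 0.994), Plbd1 (r = 0.990) and Pla2g4f (r = 0.990), and Calml3, a calmodulin-like gene of epithelia, fell from a mean of 9.97 RPKM in NS to 1.17 in 5dw. These correlations are a description over libraries that share the NS and 5dw contrast. The part of keratinocyte RNA in the Pdgfb values was not tested. Over all 11 libraries Pdgfa did not follow this order, being highest in WT 5dw library 3 and lowest in WT NS library 1. Within WT NS, Act NS and Act 5dw, however, Pdgfa and the keratinocyte sum put the libraries in the same order, and WT 5dw library 3 was highest of its group in both. The part of keratinocyte RNA in the Pdgfa values was not tested.

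**Figure D4:**
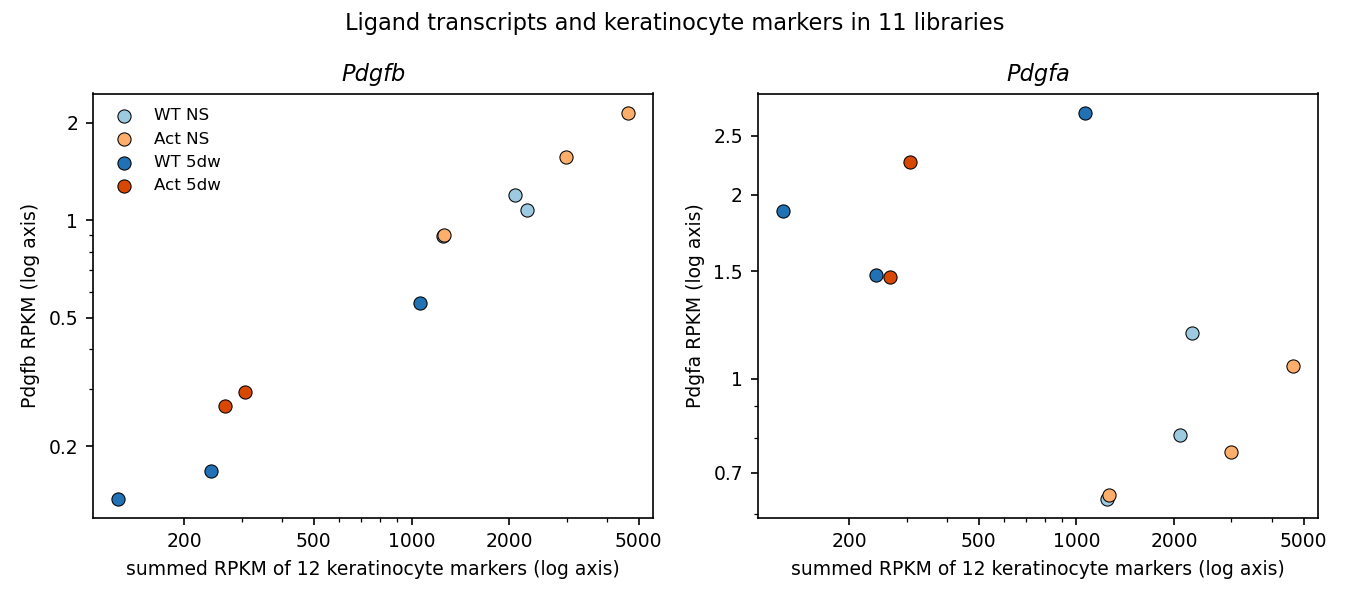
Pdgfb (left) and Pdgfa (right) RPKM against the summed RPKM of 12 keratinocyte markers, all on log axes, with 1 point per library coloured by group. Pdgfb climbs with the keratinocyte sum from 0.138 RPKM at a sum of 125 to 2.15 RPKM at a sum of 4635, and Pdgfa is higher in the 5dw libraries (sums of 125 to 1059) than in the NS libraries (sums of 1246 to 4635), which share no range of sums.

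Other cell types known to express members were also looked up. The defining pericyte genes Rgs5 and Higd1b were at most 2.90 and 0.0461 RPKM in any library. The sum of 10 mural cell markers, most of it Ndufa4l2, was 57.99 to 115.5 RPKM in NS and 68.3 to 114.8 in 5dw. Among these markers Cspg4 (3.763 to 7.229 RPKM in NS and 0.7952 to 1.222 in 5dw) and Notch3 were lower in 5dw. Abcc9 was higher (2.496 to 4.853 and 5.527 to 11.1), each without overlap. Pdgfrb was highest in the NS libraries numbered 1 (58.5 RPKM in WT and 66.4 in Act), which also had the highest fibroblast sums of the NS libraries, whereas their mural sums were the highest of all libraries in WT NS library 1 (115.5) and below that of Act NS library 3 (102.8) in Act NS library 1 (78.55). Cspg4 had its highest values in the NS libraries numbered 1 (7.229 RPKM in WT and 6.401 in Act). Rgs5 had its lowest values there (0.6104 and 0.4045). The part of these marker differences in Pdgfrb was not tested. The sum of the 8 macrophage markers in the table, of 9 listed, was 12.8 to 20.2 RPKM in NS and 21.8 to 28.95 in 5dw, without overlap. Cd14, a lipopolysaccharide co-receptor, was at 2.79 to 3.67 RPKM in NS and 10.35 to 16.3 in 5dw, whereas Adgre1, which encodes the defining macrophage protein F4/80, was at most 0.119 RPKM. The sum of 6 platelet markers, most of it Itgb3, was 12.8 to 29.65 RPKM in NS and 19.3 to 28.97 in 5dw. The platelet chemokine gene Ppbp was at most 0.116 RPKM in NS and at 1.98 to 4.195 in 5dw, and Pf4 at most 0.230 in NS and at 0.135 to 1.504 in 5dw. The sum of 10 endothelial markers was 23.2 to 40.6 RPKM in NS and 22.4 to 29.5 in 5dw, and the defining gene Cdh5 was at most 1.99 RPKM. Within that sum Pecam1 was higher in 5dw (3.39 to 5.66 RPKM in NS and 11.5 to 14.0 in 5dw). Tek was lower (13.9 to 29.4 and 4.74 to 10.2), both without overlap. The sum of 6 Schwann cell markers was 5.45 to 10.67 RPKM in NS and 0.811 to 1.06 in 5dw, and that of 5 skeletal muscle markers 2.94 to 6.25 and 1.81 to 2.44, both without overlap. The sum of 7 adipocyte markers, most of it Lpl, was 67.25 to 127.1 RPKM in NS and 45.5 to 69.4 in 5dw, while the defining gene Plin1 was at most 0.0923 RPKM. The part of these marker differences, and of that in the fibroblast sum, in the values of the PDGF genes was not tested.

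The genes whose pattern over the 11 libraries was most like the other members were Tbx15, Cep57 and Col4a3 for Pdgfra (r = 0.982, 0.982 and 0.978), Itgb5, Mtss1l and Apeh for Pdgfrb (0.954, 0.950 and 0.897) and Nckap5l, Tsc22d1 and Prr5l for Pdgfrl (0.892, 0.891 and 0.883). For the ligands they were Palld, Chaf1b and Gm4735 for Pdgfa (r = 0.970, 0.966 and 0.965), Fabp3, H19 and Sfrp2 for Pdgfc (0.992, 0.983 and 0.980) and Pvrl3, Fbxl17 and Atf3 for Pdgfd (0.974, 0.972 and 0.970). H19, an imprinted noncoding RNA, and Sfrp2, a secreted Wnt modulator, stood at means of 9.80 and 38.1 RPKM in NS and 334.7 and 297.1 RPKM in 5dw. Tbx15, a transcription factor of dorsal dermis, stood at 41.3 and 26.2 RPKM. These are the highest of 11979 correlations per member over 11 libraries and carry no test.

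The surrounding pathway was described with lists of genes that act before, at and after the receptors. Their counts are to be read against all genes tested, of which 9.45% were higher and 48.8% lower in WT 5dw and 9.04% higher and 36.5% lower in Act 5dw. After scaling, 22.4% of all genes were higher and 22.2% lower in WT 5dw, and 19.9% higher and 20.8% lower in Act 5dw. Of 9 genes for ligand processing and binding, 4 rose, 2 fell and 3 did not pass the test in WT 5dw against WT NS, with a median log2FC of −0.08 against −0.40 for all genes, and 3, 1 and 5 in Act, with a median of −0.29 against −0.31. After scaling, 4 rose and 1 fell in each genotype. Plat, which encodes tissue plasminogen activator, the protease that activates PDGF-C, was at 201.6, 261.8 and 169.1 RPKM in WT NS and at 545.5, 588.7 and 530.3 RPKM in WT 5dw. All wound libraries were above all NS libraries (log2FC 1.42, SE 0.27, limma, adjusted p = 0.00118). In Act mice Plat rose as well, by a log2FC of 1.57 (adjusted p = 0.00183). Sparc, a matricellular protein that binds PDGF-B, rose by a log2FC of 1.43 (SE 0.22, limma, adjusted p = 0.000390) from a mean of 1914 RPKM. A2m, a protease inhibitor that also carries growth factors, was at 0.0544 to 0.113 RPKM in WT NS and at 2.23 to 3.95 RPKM in WT 5dw (log2FC 2.49, SE 0.19, limma, adjusted p = 5.16e-06). The members that fell, named after their values were seen, were Plau, urokinase, which activates PDGF-D (log2FC −0.71, limma, adjusted p = 0.0283), and St14, matriptase, an epithelial protease that also cuts PDGF-D (log2FC −1.62, limma, adjusted p = 0.00390). A2m reached 1 RPKM in 5dw libraries only and St14 in NS libraries only, so that each passed the filter through the tissue in which it was higher and counts as no support for the list. St14 was at 1.18 to 4.87 RPKM in NS and 0.286 to 0.794 in 5dw, and it put the 11 libraries in the order of the keratinocyte sum, except that the NS libraries numbered 1 exchanged places. The part of keratinocyte RNA in St14 was not tested. The Plau call was lost after scaling (log2FC −0.25, adjusted p = 0.378).

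Of 31 genes that carry the receptor signal, 0 rose, 23 fell and 8 did not pass the test in WT, with a median log2FC of −0.60, and 0, 21 and 10 in Act, with a median of −0.62, beside 48.8% and 36.5% of all genes lower. After scaling, 3 rose and 11 fell in WT and 1 rose and 10 fell in Act, beside 22.2% and 20.8% of all genes lower. Of the 31, 1 that fell, Pik3cb, reached 1 RPKM in NS libraries only. Stat5b, a transcription factor phosphorylated downstream of PDGF receptors, was at 18.7, 18.6 and 20.8 RPKM in WT NS and at 5.14, 5.87 and 4.73 RPKM in WT 5dw (log2FC −1.79, SE 0.12, limma, adjusted p = 2.59e-06). Pik3r1, the p85α subunit that docks on the receptors, was at 14.2, 11.3 and 19.4 RPKM in WT NS and at 3.26, 3.44 and 3.41 RPKM in WT 5dw (log2FC −1.96, SE 0.18, limma, adjusted p = 1.48e-05). Sos2, an exchange factor for Ras, fell by a log2FC of −1.34 (SE 0.12, limma, adjusted p = 1.27e-05). These 3 falls were also called after scaling, with log2FC of −1.36, −1.54 and −0.95. In Act mice they were −1.64, −1.86 and −1.24.

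Of 14 genes that attenuate the signal, 1 rose, 8 fell and 5 did not pass the test in WT, with a median log2FC of −0.46, and 2, 6 and 6 in Act, with a median of −0.38. The falls were at shares near the 48.8% and 36.5% of all genes lower. After scaling, 2 rose and 3 fell in WT and 2 rose and 4 fell in Act. Spry4 and Spry1, which encode Sprouty inhibitors of Ras signalling, fell. Spry2, the most abundant Sprouty gene of the list, overlapped between the groups (50.2 to 74.3 RPKM in WT NS and 54.0 to 65.4 in WT 5dw). Spry4 was at 3.86 to 5.14 RPKM in WT NS and at 0.816 to 1.05 RPKM in WT 5dw (log2FC −1.87, SE 0.13, limma, adjusted p = 3.34e-06), and Spry1 at 14.3 to 21.9 and 3.63 to 6.02 RPKM (log2FC −1.76, SE 0.18, limma, adjusted p = 3.04e-05). Dusp4, a MAP kinase phosphatase, went the other way, from 2.13 to 2.99 RPKM in WT NS to 7.80 to 14.4 RPKM in WT 5dw (log2FC 1.96, SE 0.25, limma, adjusted p = 0.000113). Dusp6, of the same list, was lower in WT 5dw (12.8 to 20.1 RPKM in WT NS and 4.13 to 6.89 in WT 5dw). Spry4 reached 1 RPKM in 6 NS libraries and 1 5dw library, so that it passed the filter through the tissue in which it was higher.

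Of 16 genes known to be induced by PDGF in cultured fibroblasts, 4 rose, 4 fell and 8 did not pass the test in WT, with a median log2FC of 0.02, and 4, 3 and 9 in Act, with a median of 0.28, beside 9.45% and 9.04% of all genes higher. After scaling, 7 rose and 1 fell in WT and 6 rose and 2 fell in Act, beside 22.4% and 19.9% of all genes higher. Tnc, which encodes the matrix glycoprotein tenascin-C, was at 8.80, 4.52 and 3.68 RPKM in WT NS and at 456.5, 335.4 and 482.5 RPKM in WT 5dw (log2FC 6.18, SE 0.33, limma, adjusted p = 6.16e-07). Ier3, an immediate early gene, rose by a log2FC of 1.85 (SE 0.19, limma, adjusted p = 3.48e-05). Ccnd1, cyclin D1, fell from a mean of 5.32 to 0.850 RPKM (log2FC −2.12, SE 0.25, limma, adjusted p = 6.90e-05), and it too reached 1 RPKM in 6 NS libraries and 1 5dw library and passed the filter through NS. Among the other class III receptor tyrosine kinases, Csf1r, the receptor of macrophage colony-stimulating factor, was higher in WT 5dw (log2FC 0.72, SE 0.22, limma, adjusted p = 0.0182), Kit did not pass the test and Flt3 was below the filter. In Act neither Csf1r nor Kit was called on the unscaled values, and after scaling Csf1r was higher (log2FC 0.89, limma, adjusted p = 0.0203). No gene of these lists was called in a comparison of Act with WT, and the lists were not tested against other genes.

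**Figure D5:**
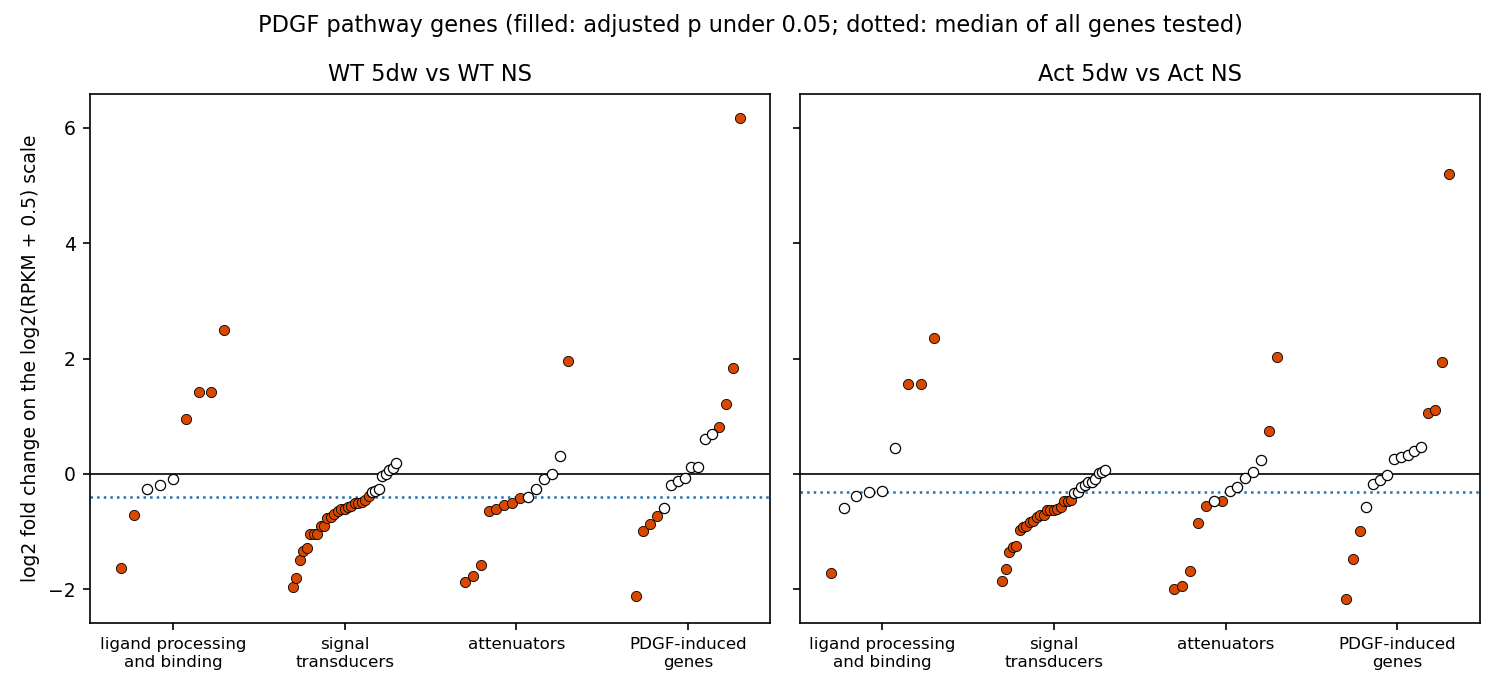
Log2FC (vertical axis) of PDGF pathway genes in 5dw relative to NS, in WT (left) and Act (right), by list; filled points passed the test and the dotted line is the median of all genes tested (−0.40 and −0.31). Signal transducers lie mostly below 0, with 23 of 31 lower in WT and 21 in Act, and the highest point is Tnc among PDGF-induced genes, at 6.18 in WT.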

How the data were processed

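Sorted cells were sequenced as poly-A RNA in stranded 100-base reads. The authors counted reads per gene in CLC Genomics Workbench against GRCm38 and deposited RPKM values for 47643 gene symbols, per the labels and the study's methods. The strand setting and annotation of the counting are not given in the sources used here. RPKM fit no count test, so limma 3.58.1 (R 4.3.3) with a mean-variance trend was run on log2(RPKM + 0.5) over all 11 libraries and 4 group means, for 11979 genes at or above 1 RPKM in at least 2 libraries. Genes were called at a Benjamini-Hochberg adjusted p under 0.05, with adjustment over all of them. Values are on the log2 scale with that pseudocount. The libraries are separate pools of animals, so that p-values measure the spread between pools. Ratios were compared by exact permutation within strata in Python 3.11.15. Both steps were tested on simulated data.

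Mapped totals of 18649321 to 39702138 reads were recovered as the number that makes RPKM times GENCODE M21 exon length whole, with a tolerance of 0.03 reads. The length was that of GENCODE for 5 members and was solved from the values for Pdgfb and Pdgfd, so that their read numbers rest on that length. Intervals cover the spread between libraries, and read numbers show the counting depth only. Replicate libraries differed by more than sampling noise.

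The correlation of deviations from group means between libraries of the same number was 0.554, 0.423 and 0.334 between WT NS and Act NS. It was 0.188, 0.12 and 0.109 between WT NS and WT 5dw. All these were over 0.1, so that numbers were taken to pair these groups from the data and not from a stated batch. It was 0.0187 and 0.143 between Act NS and Act 5dw and −0.0777 and 0.189 between WT 5dw and Act 5dw, which were not taken as paired. Between Act NS and WT 5dw it was 0.222, 0.195 and 0.263, and between WT NS and Act 5dw −0.124 and 0.158. Libraries of different number reached 0.313 (median −0.142 over 30 pairs), above the values between WT NS and WT 5dw. A value over 0.1 thus does not set libraries of the same number apart. All 7 members were named in every comparison, and of each pathway list the 3 called genes with the lowest p in WT 5dw against WT NS. Members, lists and tests were chosen with earlier results of these data known. Alternatives were other pseudocounts, filters, scaling, weights, samples and a replicate block, with 4 more chosen after seeing the data.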

Additional observations from a re-analysis of the deposited data

How the results depend on the processing

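Calls of Pdgfa, Pdgfb and Pdgfc in WT and of Pdgfra, Pdgfb and Pdgfc in Act 5dw against NS held in all alternatives in which they were tested. A filter at 5 RPKM tested 4 members and left out Pdgfa, Pdgfb and Pdgfc. The replicate block changed 1 member's call, Pdgfrb in Act 5dw against Act NS (−0.62, limma, adjusted p = 0.0323), where the numbers do not count as paired, and no other. The call of Pdgfd in WT was also lost with no filter (limma, adjusted p = 0.0813). Low depth limits Pdgfb in 5dw, at 16 to 63 reads.

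Of all genes, the number changed in WT 5dw against WT NS was 3771 with the filter at 5 RPKM and 4382 with limma-voom on recovered reads, and in Act 3104 and 3204, where fewer genes were tested. For Act NS against WT NS it was 9 with no filter, 1 at 5 RPKM, 4 without the trend, 4 with array weights, 0 with only the compared groups, 11 without both NS libraries numbered 1, 0 with limma-voom, 0 without WT 5dw library 3 and Act NS library 3, and 1 with scaling and block. For Act 5dw against WT 5dw it was 18 with no filter, 2 with scaling and 0 with limma-voom. For the interaction it was 10 with no filter, 1 with array weights, 2 without both NS libraries numbered 1 and 1 without WT 5dw library 3 and Act NS library 3. Leaving out 1 library at a time gave 5777 to 7335 genes in WT and 3505 to 5860 in Act (lowest without Act 5dw library 3), 0 to 7 for NS, 0 to 4 for 5dw and 0 to 2 for the interaction.

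Signs turned only for values that were not called. After scaling, with and without the block, Pdgfrb in WT was 0.38, and Act NS against WT NS was 0.13 for Pdgfra, 0.069 for Pdgfrl and 0.029 for Pdgfa, while Pdgfd in Act was 0.085 and, with the block, 0.23. Without both NS libraries numbered 1, Pdgfrb in WT was 0.17, Pdgfrl in Act NS against WT NS 0.19, and the interaction −0.048 for Pdgfrl and 0.0025 for Pdgfa. Without WT 5dw library 3 and Act NS library 3, Act 5dw against WT 5dw was 0.10 for Pdgfa and −0.022 for Pdgfd, Act NS against WT NS 0.071 for Pdgfra, and the interaction 0.28 for Pdgfa and 0.12 for Pdgfb. With array weights, Pdgfb in Act 5dw against WT 5dw was −0.036, and Act NS against WT NS 0.029 for Pdgfd and 0.0059 for Pdgfra. With limma-voom, the interaction for Pdgfa was 0.042. The causes were not tested.

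Leaving out 1 library at a time, Act NS against WT NS ranged from −0.072 to 0.11 for Pdgfra, −0.0042 to 0.47 for Pdgfrb, −0.26 to 0.19 for Pdgfrl and −0.19 to 0.10 for Pdgfa. The extremes in NS kept their sign, at −0.62 to −0.10 for Pdgfd and 0.13 to 0.59 for Pdgfb. Act 5dw against WT 5dw ranged from −0.33 to 0.16 for Pdgfa, −0.11 to 0.26 for Pdgfb and −0.26 to 0.34 for Pdgfd. The interaction ranged from −0.28 to 0.21 for Pdgfa and −0.045 to 0.40 for Pdgfrl. Without a turn of sign it ranged from 0.11 to 0.71 for Pdgfd, 0.22 to 0.43 for Pdgfc and −0.65 to −0.17 for Pdgfrb. Pdgfrb in WT ranged from −0.30 to 0.17 and Pdgfd in Act from −0.56 to 0.039.

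The log2 difference of Pdgfd over Pdgfc between 5dw and NS ranged from −1.96 to −1.64 without single libraries. It was −1.87 without WT 5dw library 3 and Act NS library 3 (exact permutation test with fewer arrangements, adjusted p = 0.0667). Pdgfra over Pdgfrb was −0.70 without both NS libraries numbered 1 (exact permutation test, adjusted p = 0.0333) and −0.59 to −0.35 without single libraries. Pdgfa over Pdgfc ranged from −0.30 to 0.029 for wounding. For Act against WT, Pdgfa over Pdgfc was 0.013 without WT 5dw library 3 and Act NS library 3 and −0.27 to 0.064 without single libraries, and summed ligands over receptors was 0.080 without both NS libraries numbered 1 and −0.19 to 0.11 without single libraries.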
